A study of Mus with 17 samples.

Results

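Acta1, the gene of the skeletal muscle alpha-actin, was followed through every library of a study of the mouse abdominal aorta, as a measure of skeletal muscle RNA beside the vessel. The choice had named 3 transcripts by their Ensembl identifiers: Acta1 as ENSMUST00000034453, Ckm (the muscle creatine kinase) as ENSMUST00000003643 and Myh4 (a fast myosin heavy chain) as ENSMUST00000018632. The Acta1 identifier had a row in all 17 files and passed the filter on low values, which makes 1 of 29983 transcripts tested. The rule thus found a row for 1 of its 3 identifiers, and Ckm and Myh4 were not analysed here. The label of skeletal muscle therefore rested on 1 marker, and its agreement with other muscle markers was not tested.

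All mice were wild-type (WT) C57BL/6, a common inbred strain, and each treatment lasted 42 days. In the AngII+neferine group (n = 6) mice received angiotensin II, a vasoconstrictor peptide hormone, at 500 ng/kg/min together with neferine, an alkaloid of lotus seeds, at 1 mg/kg per day. The AngII group (n = 6) received the same angiotensin II with double distilled water, and the Control group (n = 5, with no replicate 3) received saline and double distilled water. The labels give neither age nor sex, nor the number of animals behind a sample, so the spread behind each p-value is that between samples, which may be partly technical.

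Alpha-actin of skeletal muscle polymerizes into the thin filaments of the sarcomere, along which myosin motors pull. It is one of the most abundant transcripts of skeletal muscle, and it is also made in the heart. The aortic wall contracts with another actin, the smooth muscle alpha-actin encoded by Acta2, while skeletal muscle lies close behind the abdominal aorta. The actin proteins are near-identical and the coding sequences of their genes are similar, so some reads of a strongly expressed actin can be assigned to another one. Low Acta1 values are uncertain for that reason, and how the authors' counting dealt with such reads was not tested. In a bulk sample, fewer cells of a type and less RNA per cell cannot be told apart.

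The files give 1 abundance value per transcript and library, on a linear scale whose unit is not named, and the read depth is unknown. Column totals lay between 392615 and 569873. Of the 17 libraries, 3 stood apart across all transcripts. AngII replicate 6 resembled the others least, with a median Spearman rho across transcripts of 0.455, against 0.606 to 0.680 for each of the remaining 16. In AngII+neferine replicate 1 and AngII replicate 2 the 10 most abundant transcripts made up 28.9% and 30.9% of the column total, against 10.5% to 21.5% elsewhere. The AngII+neferine files list another set of rows than those of the other groups, so neferine cannot be told apart from the file set.

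Acta1 was low in most aortas and very high in 1. In the AngII+neferine group its value was 1536 in replicate 1, listed at 0 in replicate 2, 0.117 in replicate 3, 1.17 in replicate 4, 14.0 in replicate 5 and 0.509 in replicate 6. In the AngII group it was 0.254, 1.56, 1.13, 1.02, 17.3 and 0.987 in replicates 1 to 6. In the Control group it was 0.193 in replicate 1, 0.510 in replicate 2, 0.115 in replicate 4, 1.36 in replicate 5 and 0.792 in replicate 6. AngII+neferine replicate 1 was thus far above every other library, AngII replicate 5 and AngII+neferine replicate 5 formed a second level, and the other 14 libraries lay at 1.56 or below. The ranges of the 3 groups overlapped.

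**Figure D1:**
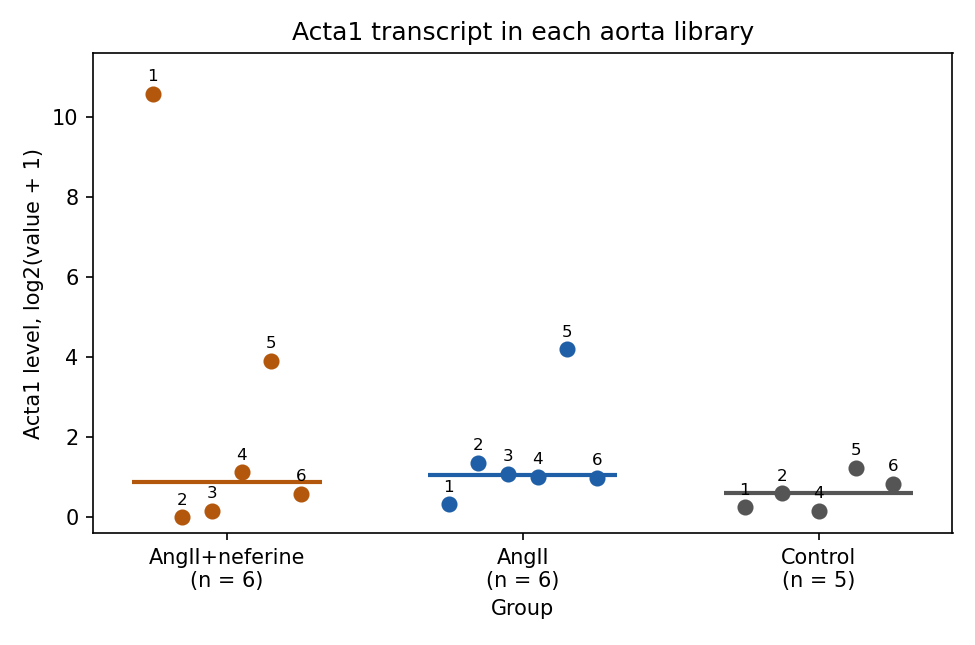
Acta1 level in each library as log2(value + 1), with the AngII+neferine, AngII and Control groups from left to right, replicate numbers beside the points and a line at each group's median value. AngII+neferine replicate 1, at 10.59, stands above all others, and replicate 5 of AngII+neferine and of AngII, at 3.91 and 4.20, stand above the remaining 14.

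The group medians were all low in spite of these libraries, at 0.841 in AngII+neferine, 1.07 in AngII and 0.510 in Control. A value of at least 1 was reached in 3 of 6 AngII+neferine, 4 of 6 AngII and 1 of 5 Control libraries. The highest AngII+neferine library was 109.5 times the second of its group, the highest AngII library 11.1 times the second, and the highest Control library 1.71 times the second. Replicate 5 was the highest library in AngII and in Control and the second highest in AngII+neferine. Over all transcripts, the deviations of same-numbered libraries from their group means correlated at -0.147 to 0.0640 in the 16 pairs. That cannot show whether same-numbered libraries share something that touches only few transcripts, which was not tested.

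Placed among the transcripts of its own library, Acta1 stood high in the same 3 libraries. It stood above 99.9% of the tested transcripts in AngII+neferine replicate 1, where it was number 32 from the top and made up 0.270% of the library's signal. It stood above 86.3% of them in AngII+neferine replicate 5 and above 88.6% in AngII replicate 5. In the other 14 libraries at most 40.7% of the transcripts lay below it, a share reached in AngII replicate 2. AngII replicate 2, like AngII+neferine replicate 1, had a large part of its signal in its 10 highest transcripts. Its Acta1 value was 1.56, the highest of these 14 libraries. Whether Acta1 goes with that part of the signal was not tested. In AngII replicate 6, the library with the lowest Spearman rho, Acta1 was 0.987.

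**Figure D2:**
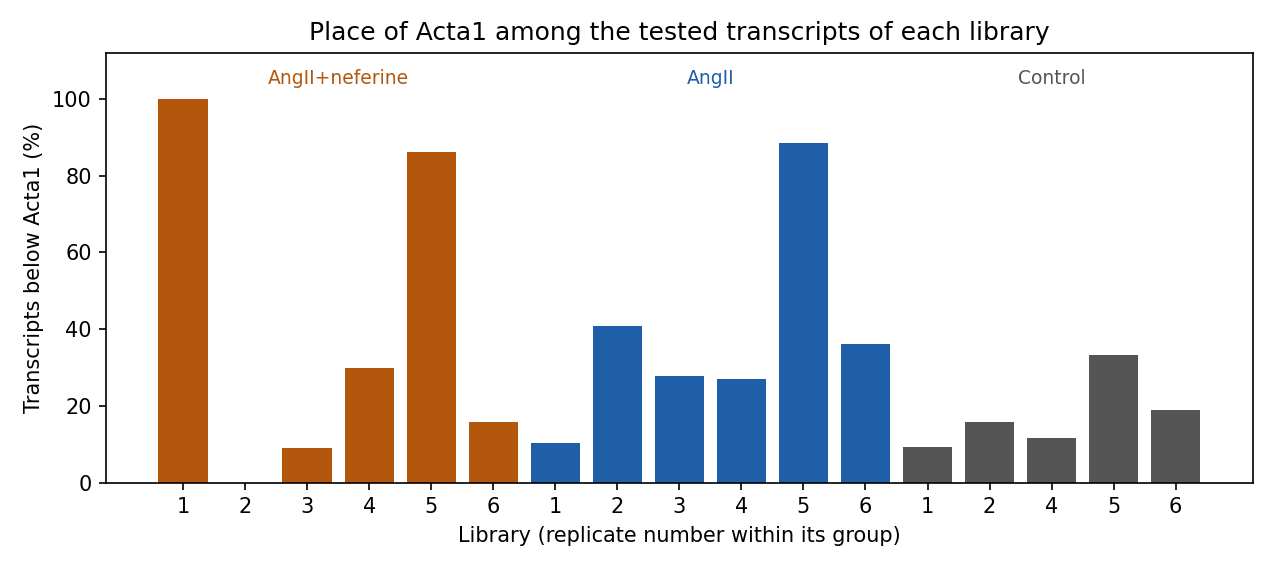
Share of the 29983 tested transcripts, in percent, whose value lay below that of Acta1 in the same library, with bars ordered by group (AngII+neferine, AngII, Control) and replicate number. The bars reach 99.9% in AngII+neferine replicate 1, 88.6% in AngII replicate 5 and 86.3% in AngII+neferine replicate 5, and at most 40.7% in the others, with no bar for AngII+neferine replicate 2, where Acta1 is listed at 0.

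Few transcripts varied as widely. On the log2(value + 1) scale Acta1 spanned 10.59 between its lowest and highest library, where the median transcript spanned 2.12, and 3 of the 29983 tested transcripts had a wider span. Its highest library was 88.6 times the second highest of all 17, and 2 of the 18414 transcripts that reached 5 in some library had a larger such ratio. Its residual SD within groups was 2.60 on the log2 scale, against a median of 0.60 over all transcripts, and 85 transcripts had a larger one. By group the SD of Acta1 was 4.11 in AngII+neferine, 1.37 in AngII and 0.44 in Control. The span and the residual SD thus rested mostly on AngII+neferine, the group that holds the highest library.

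AngII was compared with Control to ask whether Acta1 differs after angiotensin II infusion. Acta1 averaged 1.50 in AngII and 0.62 in Control on the log2(value + 1) scale, a log2 fold change of 0.88 ± 1.45 (SE, n = 6 and 5) that did not pass (limma, Benjamini-Hochberg adjusted p = 0.901). The 95% interval, -2.19 to 3.95, leaves room for a large difference either way. Its width uses a spread shared by all groups, AngII+neferine included. Without AngII+neferine replicate 1, which is in neither group compared, the log2 fold change stayed at 0.88. Its interval was then -0.62 to 2.38 (limma, adjusted p = 0.769). A two-sided exact permutation test of this transcript alone gave p = 0.162, where the smallest p possible is 0.00433. Without AngII replicate 5 the log2 fold change was 0.34 (limma, adjusted p = 0.966). Limma called 0% of all 29983 tested transcripts in this comparison, with 2175 at an unadjusted p under 0.05. With no difference anywhere, a share of about 0.05 would lie under that threshold. The exact rank sum test called 0 too, but its smallest p of 0.00433 leaves it almost no room to pass the adjustment over 29983 transcripts. The groups did not overlap in 0.807% of the transcripts, and Acta1 was not one of them.

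AngII+neferine was compared with AngII to ask whether Acta1 differs when neferine is added to the infusion. Acta1 averaged 2.73 in AngII+neferine and 1.50 in AngII on the log2(value + 1) scale, a log2 fold change of 1.23 ± 1.38 (SE, n = 6 each) with a 95% interval of -1.70 to 4.16 (limma, adjusted p = 0.959). The sign rested on 1 library. Without AngII+neferine replicate 1 the log2 fold change was -0.34, with a 95% interval of -1.84 to 1.16 (limma, adjusted p = 0.959). The exact permutation test with all libraries gave p = 0.699, two-sided, with a smallest possible p of 0.00216. Limma called 0% of all transcripts. Of the 29983 tested, 1564 had an unadjusted p under 0.05 (limma), near the share of 0.05 that no difference would give. The groups did not overlap in 0.263% of the transcripts, Acta1 not among them. The exact rank sum test called 0, with as little room to pass.

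AngII+neferine was compared with Control to ask what still differs from saline when neferine is given. Acta1 averaged 2.73 in AngII+neferine and 0.62 in Control on the log2(value + 1) scale. The log2 fold change of 2.11 ± 1.45 (SE, n = 6 and 5), with a 95% interval of -0.96 to 5.18, did not pass (limma, adjusted p = 0.726). Without AngII+neferine replicate 1 it was 0.54, with a 95% interval of -1.02 to 2.10 (limma, adjusted p = 0.928). The exact permutation test with all libraries gave p = 0.366, two-sided. Limma called 0.0367% of the transcripts here, and 2.08% did not overlap between the groups, Acta1 in neither set. An unadjusted p under 0.05 (limma) was reached by 2622 of the 29983 transcripts. The exact rank sum test called 0 here as well, with the same limit.

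**Figure D3:**
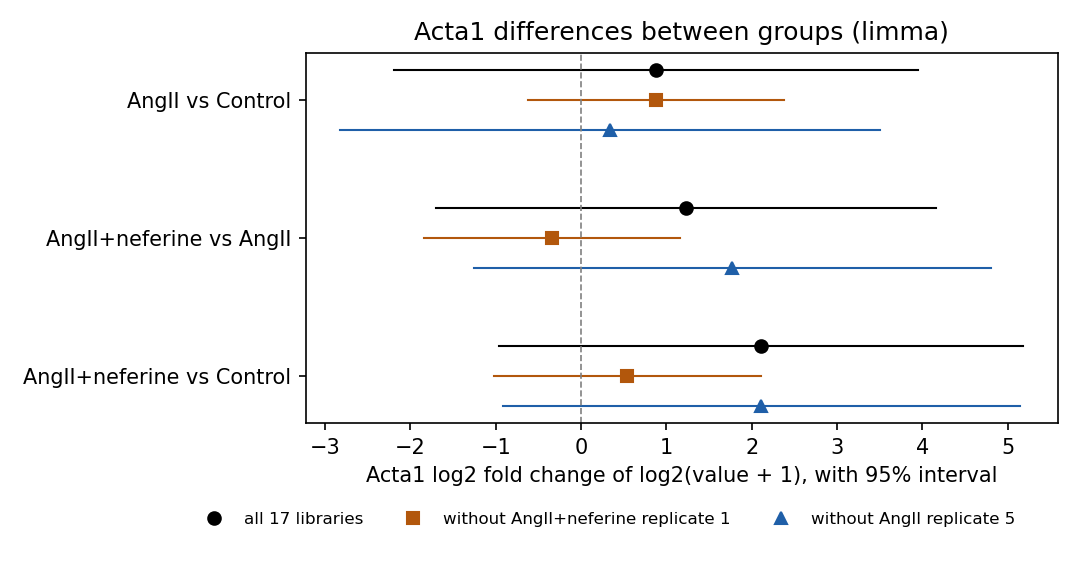
Log2 fold change of Acta1 on the log2(value + 1) scale for each comparison, first-named group over the second, with its 95% limma interval as a line, for all 17 libraries (circles), without AngII+neferine replicate 1 (squares) and without AngII replicate 5 (triangles). Every interval drawn crosses 0, and without AngII+neferine replicate 1 the estimate for AngII+neferine vs AngII lies at -0.34.

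The Acta1 level was also entered as a term for every library in the fit of all other transcripts. That level was 10.59 in AngII+neferine replicate 1 and at most 4.20 elsewhere on the log2(value + 1) scale. The term thus mostly set that library apart and does not compare the groups at equal Acta1. Between AngII+neferine and Control, 44 transcripts were then called (limma, adjusted p under 0.05), 42 higher and 2 lower in AngII+neferine, against 11 without the term, 10 higher and 1 lower. All 11 were among the 44. Leaving out AngII+neferine replicate 1 in place of adding the term gave 27 called transcripts, again with all 11 among them. The number of calls was not stable: leaving out each of the 17 libraries in turn gave 0 to 31. It was 0 without Control replicate 2, 4 or 5 or AngII+neferine replicate 2. Without AngII+neferine replicate 4 it was 1, and that transcript was among the 11. Without AngII+neferine replicate 6 it was also 1, but that transcript was not among the 11. Without AngII replicate 6 it was 31, with all 11 among them. Library weights in place of the term gave 63 calls between AngII+neferine and Control, so a rise was not particular to the term. With the term, 0 transcripts were called between AngII and Control and 0 between AngII+neferine and AngII, as without it.

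Among transcripts with Ensembl identifiers, those most like Acta1 by Pearson r over the 17 libraries were ENSMUST00000103095 and ENSMUST00000208710. Their r was 0.970 and 0.948 on the log2(value + 1) scale. The files do not pair these identifiers with gene names. The libraries fall into separate levels, so the r is a description of that pattern and carries no test. In AngII+neferine replicate 1 the first was at 694.2 and the second at 443.6, values 0.452 and 0.289 times that of Acta1. In AngII+neferine replicate 5 they were at 4.97 and 3.26, and in AngII replicate 5 at 7.38 and 7.00. Both had their highest values in the same 3 libraries as Acta1. The pair was chosen by its r with Acta1 over these libraries, so this adds no support. In the other 14 libraries the first was at most 1.64 and the second at most 2.12. The 3.26 of the second in AngII+neferine replicate 5 was thus only a little above its low libraries.

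**Figure D4:**
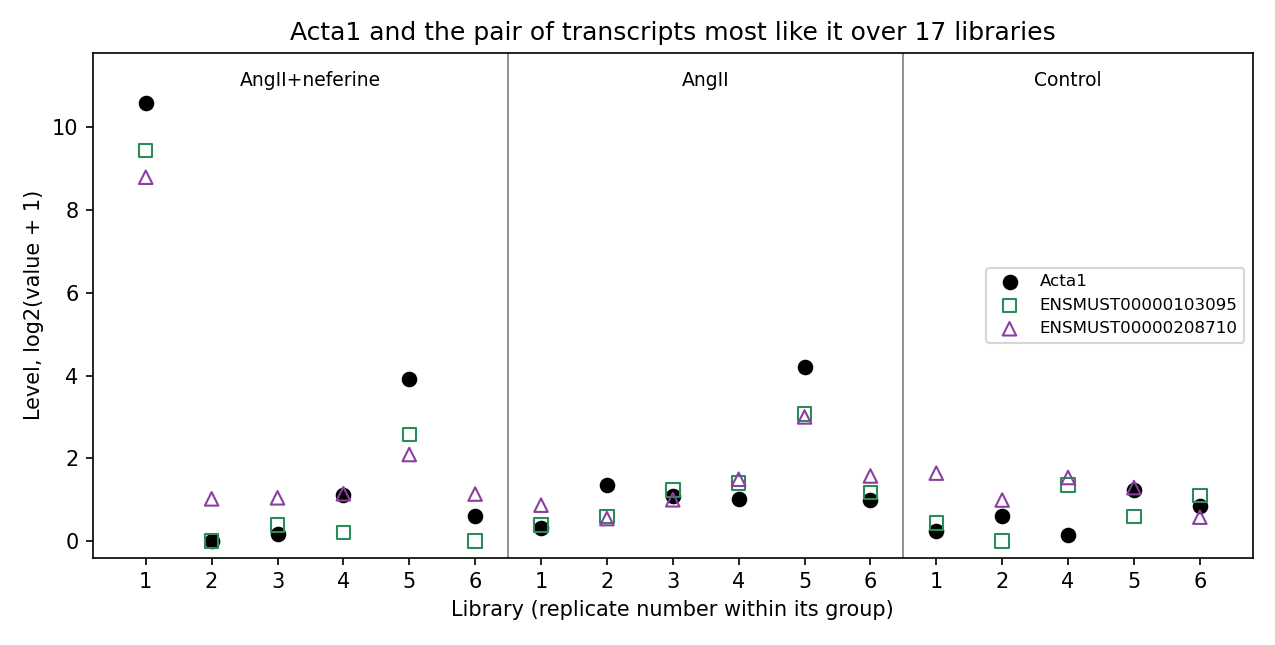
Level of Acta1 (filled circles), ENSMUST00000103095 (squares) and ENSMUST00000208710 (triangles) as log2(value + 1) in each library, ordered by group (AngII+neferine, AngII, Control) and replicate number. All 3 transcripts have their highest value in AngII+neferine replicate 1 and stand above the rest in replicate 5 of AngII+neferine and of AngII.

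Over all 17 libraries 4 of 29982 other transcripts had an r above 0.9 with Acta1, and 16 had one above 0.8. Without AngII+neferine replicate 1 the numbers were 0 and 4. ENSMUST00000103095 then had an r of 0.846, and 2 transcripts were more like Acta1, while ENSMUST00000208710 had an r of 0.726, and 17 were. By ranks, which weigh the low libraries as much as the high ones, the Spearman rho over 17 libraries was 0.609 for ENSMUST00000103095 and 0.346 for ENSMUST00000208710, and 85 and 1683 transcripts had a higher one. The pair was chosen by Pearson r among Ensembl transcripts, and other transcripts stood above it by rank. The high values of r thus rested on the high libraries.

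Acta1 belonged to a group of transcripts that stood out in the same library. They were counted among the 39614 transcripts shared by all libraries, and transcripts listed only for AngII+neferine are counted under other observations. In AngII+neferine replicate 1, 23 transcripts reached 5 and exceeded the next highest library at least 10 times, and Acta1 was the highest of the 23. Together they made up 0.779% of the signal of that library, of which Acta1 alone gave 0.270%. The number of such transcripts was 2 or 3 in the other AngII+neferine libraries, 9 to 136 in the AngII libraries, with the 136 in replicate 6, and 1 to 6 in the Control libraries. For the 22 transcripts other than Acta1, the next highest library was AngII replicate 5 in 8 cases and AngII+neferine replicate 5 in 2, the same libraries that came next for Acta1. The other 12 had their next highest value in one of 8 further libraries. AngII replicate 2 came next for 3 of them, and Control replicates 1 and 2 for 2 each. How often each library comes next among all transcripts was not counted, so these numbers are not read as likeness to Acta1. Of the 23, 13 passed the filter on low values.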

How the data were processed

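Per the labels' protocols, total RNA of abdominal aorta was extracted with Trizol, ribosomal RNA was depleted, and Illumina libraries were made. The deposited files hold a linear abundance signal per transcript, never negative, normalized in a way that the file headers do not name. Which aligner, quantification tool, build and annotation were used is not given in the sources used here. Per the submitters' processing notes, limma was used in a role that they do not state. Files hold 43752 transcripts (Control, AngII) or 41642 (AngII+neferine), and 39614 are shared.

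Groups and replicate numbers came from the sample titles. The log2(value + 1) of all 17 samples entered 1 limma fit (version 3.58.1, R 4.3.3, trend, robust, a term per group). The 29983 transcripts that reached 1 in 5 or more libraries were tested, with Benjamini-Hochberg adjustment over all of them and a threshold of 0.05. Fold changes on this scale understate changes of low values. The script was tested on simulated data. Descriptions were made with pandas 2.3.3.

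The members, tests and lists were chosen with earlier results of these data known. The identifiers of Acta1, Ckm and Myh4 were given with that choice. RefSeq (GRCm38.p6) lists 2 transcripts of Acta1, but 0 of 45780 identifiers matched its table, so no other gene, marker list or position is reported, and the aorta label was not checked against smooth muscle markers. The rule for named transcripts took the members and the 2 Ensembl transcripts with the highest Pearson r with their mean, here with Acta1. Alternatives were other scalings, pseudocounts (0.1, 0.5), no filter, other limma settings, exact tests, a replicate block, an Acta1 covariate and leaving out libraries.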

Additional observations from a re-analysis of the deposited data

Results flagged for a closer look

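On the linear scale of the files, a library far from the others of its group was looked for in 9 groups of 5 or 6 values. The measure was the gap to the next library over the group's range, against Dixon's critical value. The 9 were Acta1 and the pair of Ensembl transcripts most like it by Pearson r, each in the 3 groups. Such a library was found in 6. Among the AngII+neferine libraries replicate 1 was far above the others in Acta1 (1536), ENSMUST00000103095 (694.2) and ENSMUST00000208710 (443.6). Among the AngII libraries replicate 5 was far above the others in Acta1 (17.3), ENSMUST00000103095 (7.38) and ENSMUST00000208710 (7.00). No Control library was far from the others in these 3 transcripts. The critical values give about 1 in 20 groups by chance for normally distributed values, which these skewed values are not, and the pair was chosen for its likeness to Acta1, so its 4 groups add no support. On the log2(value + 1) scale, tried after seeing the data, 4 of the 9 groups passed. Acta1 passed in both groups, with a ratio of 0.631 in AngII+neferine and 0.734 in AngII, both above Dixon's critical value, while in AngII the pair did not, with 0.622 for ENSMUST00000103095 and 0.581 for ENSMUST00000208710.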

How the results depend on the processing

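No alternative brought Acta1 past the threshold in any of the 3 comparisons. For AngII+neferine vs AngII the log2 fold change of 1.23 reversed to -0.34 without AngII+neferine replicate 1 and to -0.50 without the 3 libraries that stand apart (chosen after seeing the data), and the difference in mean rank was -0.667. The other alternatives kept the sign. Leaving out 1 library at a time gave -0.34 to 1.78 for this comparison, 0.34 to 1.11 for AngII vs Control and 0.54 to 2.66 for AngII+neferine vs Control. A pseudocount of 0.1 gave 1.52 for AngII vs Control, and library weights gave 0.16 for AngII+neferine vs AngII and 1.20 for AngII+neferine vs Control.

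Same-numbered libraries did not deviate together over all transcripts. Whether they share something that touches only few transcripts was not tested. With a replicate block the log2 fold changes were 1.18 for AngII vs Control, 1.23 for AngII+neferine vs AngII and 2.41 for AngII+neferine vs Control, none past the threshold, and 1 of the 17 libraries correlated best with its own number. The block moved the calls over all transcripts between AngII+neferine and Control to 0, against 11. Over all alternatives these calls ranged over 0 to 106 for that comparison, 0 to 15 for AngII+neferine vs AngII and 0 to 12 for AngII vs Control. The highest numbers came without the 3 libraries that stand apart, or, for AngII vs Control, without AngII replicate 6. The planned tests of Ckm and Myh4 and the correlations among the 3 members were not run. The read depth is unknown, which limits what values near 0 can show.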

Other observations

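The files of the AngII+neferine group list 2028 transcripts that the Control and AngII files do not list. Of these, 45 reached 5 in AngII+neferine replicate 1 and exceeded every other AngII+neferine library at least 10 times there, and they made up 0.130% of its signal. In the other 5 libraries of the group the number was 5 to 24, the 5 being in replicate 5. AngII+neferine replicate 1, the library highest in Acta1, thus had the most of such transcripts, while replicate 5, the second highest in Acta1, had the fewest. This was not tested.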
